A study of Mus musculus with 38 samples.

Results

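The BMP4 response of mouse fibroblasts that carried Jdp2, Glis1, Esrrb and Oct4 (JGEO) was measured at day 7 of reprogramming in 1 RNA-seq library with BMP4 and 1 library without. Every gene of a table of 8 libraries was a member, apart from microRNAs, small nucleolar RNAs and other short RNAs, which left 35746 of 37108 genes, and no measured value chose them. Values were FPKM, which scales a gene's reads by its length and the depth of the library. Of the members, 9320 reached an FPKM of 5 in at least 1 of the JGEO libraries and were compared gene by gene, 14267 had at least 1 and entered the summaries of gene lists, and 11591 were listed at 0 in both libraries.

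The study asked how BMP4 steers fibroblasts that carry a set of reprogramming factors, and the table held 4 such pairs of libraries among the series' 38 samples, with the factor sets JGE, JGEO, JGESO and JGES (S, Sall4; O, Oct4). The fibroblasts came from E13.5 embryos, taken regardless of sex, of OG2 males, which carry a GFP reporter of Oct4, crossed with 129S4/SvJaeJ females. Both JGEO cultures received the factors, without Sall4, from pMXs retroviral vectors and were kept in iCD3 medium with vitamin C, mLIF, bFGF, CHIR99021, SGC0946, an LSD1 inhibitor and Y27632, and the BMP4+ culture also received BMP4 at 10 ng/ml for 7 days. Each culture was unsorted and gave 1 polyA RNA library, so every difference compares those 2 libraries, carries no p-value and has no replicate check, and for a gene of 1 cell type fewer cells and less RNA per cell cannot be told apart. The growth protocol in the labels names the virus mixture that includes Sall4, so the factors were checked in the libraries.

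BMP4 is a secreted ligand that binds pairs of type I and type II receptors, which phosphorylate Smad1, Smad5 and Smad9, and with Smad4 these switch on early targets such as the Id genes, which encode inhibitors of basic helix-loop-helix factors, and the inhibitory Smads. In the early embryo BMP signalling favours mesoderm, endothelium, extraembryonic fates and surface ectoderm over neural fates. Oct4, encoded by Pou5f1, is a POU factor of pluripotent cells and germ cells that binds the octamer ATGCAAAT.

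The delivered factors were read first. Pou5f1 stood at 1569.9 FPKM without and 1599 FPKM with BMP4 in JGEO, against 0 and 0.097 in the JGE pair, which did not receive it. Jdp2, a bZIP repressor of the AP-1 family, was at 1290.1 and 1513 FPKM, and Esrrb, an orphan nuclear receptor of naive pluripotent cells, at 384 and 486 FPKM. Glis1, a zinc-finger factor, was near 0 in both libraries (0.150 and 0.388 FPKM), as in the other 6 libraries, where it also was delivered and lay between 0 and 1.10 FPKM, so its level does not check the label. Sall4, which was not in the set, was at 28.9 and 30.3 FPKM, against 2.09 and 6.23 FPKM in the JGE pair, which did not receive it either, and 174 to 273 FPKM in the JGESO and JGES libraries, which did. The FPKM of Jdp2, Esrrb and Pou5f1 do not separate viral from endogenous transcripts, and these 3 genes differed by 0.23, 0.34 and 0.03 on the log2 scale between the libraries.

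Promoter sequence was read for the genes that moved, since Oct4 was the factor added to the JGE set. A promoter here is the 250 bases before and 50 bases after a gene's start in RefSeq (GRCm38.p6), and the octamer was searched as ATGCAAAT on either strand, ATTTGCAT being its reverse complement. It was present in the promoters of 7 of 80 genes called lower with BMP4 that had one (8.75%), 1 of 81 called higher (1.24%), 122 of the 7010 compared genes with one (1.74%) and 532 of all 27025 genes (1.97%). The 7 genes called lower were Aldh1a2, Cdx2, Cdx4, Dll1, Neurog1, Sfrp2 and Sox1, and the gene called higher was Spp1. For 6 of the 7 the word lay before the start, and 52 bases around it are shown 5′ to 3′ on the strand of the gene, with the octamer in capitals. A match describes the letters of the window and does not show that a factor binds there.
Cdx4: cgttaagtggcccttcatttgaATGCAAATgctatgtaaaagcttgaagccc
Cdx2: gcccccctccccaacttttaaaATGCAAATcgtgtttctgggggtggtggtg
Neurog1: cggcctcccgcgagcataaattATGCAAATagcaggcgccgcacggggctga
Aldh1a2: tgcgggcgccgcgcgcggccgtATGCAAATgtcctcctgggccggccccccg
Dll1: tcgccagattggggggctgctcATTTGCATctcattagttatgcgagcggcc
Sfrp2: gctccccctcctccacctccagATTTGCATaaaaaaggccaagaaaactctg

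In GRCm38 these stretches lie at chrX:103321283-103321334 on the plus strand for Cdx4, chr5:147307367-147307418 on the minus strand for Cdx2, chr13:56252289-56252340 on the minus strand for Neurog1, chr9:71215683-71215734 on the plus strand for Aldh1a2, chr17:15376013-15376064 on the minus strand for Dll1 and chr3:83766252-83766303 on the plus strand for Sfrp2. The octamer began 93 bases before the start of Cdx4 and 147 before that of Cdx2, and in Sox1 it began 19 bases after the start. Other words were searched in the same way on both strands, and none of the words contains another. AAGGTCA, a word bound by Esrrb, was in 8.64% of the promoters of genes called higher, in 0 of the 80 of genes called lower and in 3.54% of those compared. TGACTCA and TGACGTCA, words bound by AP-1 and related bZIP factors, were in 8.64% and 6.17% of the genes called higher, 2.5% and 3.75% of those called lower and 3.95% and 3.38% of those compared. GGCGCC, a GC-rich word of Smad1 and Smad5 binding, was in 14.8% of the promoters of genes called higher, 18.8% of those called lower and 26.3% of those compared. The palindrome GTCTAGAC, a Smad word, was in none of the 81 and 80 promoters and in 0.243% of those compared.

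Most genes hardly differed between the JGEO libraries. Each difference is that of log2(FPKM + 1), with minus without BMP4, which understates the change of genes with low values, and a gene was called when it differed by at least 2-fold on that scale and reached an FPKM of 5 in 1 or both libraries. Of 9320 genes, 113 (1.21%) were called higher with BMP4 and 130 (1.39%) lower, the median difference was 0.00 and 86.3% lay within 0.5 of no difference. In the JGE pair the same rule called 349 of 9399 genes higher (3.71%) and 418 lower (4.45%). Among the JGEO calls, 17 higher and 6 lower were gene models with no family in their name.

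**Figure D1:**
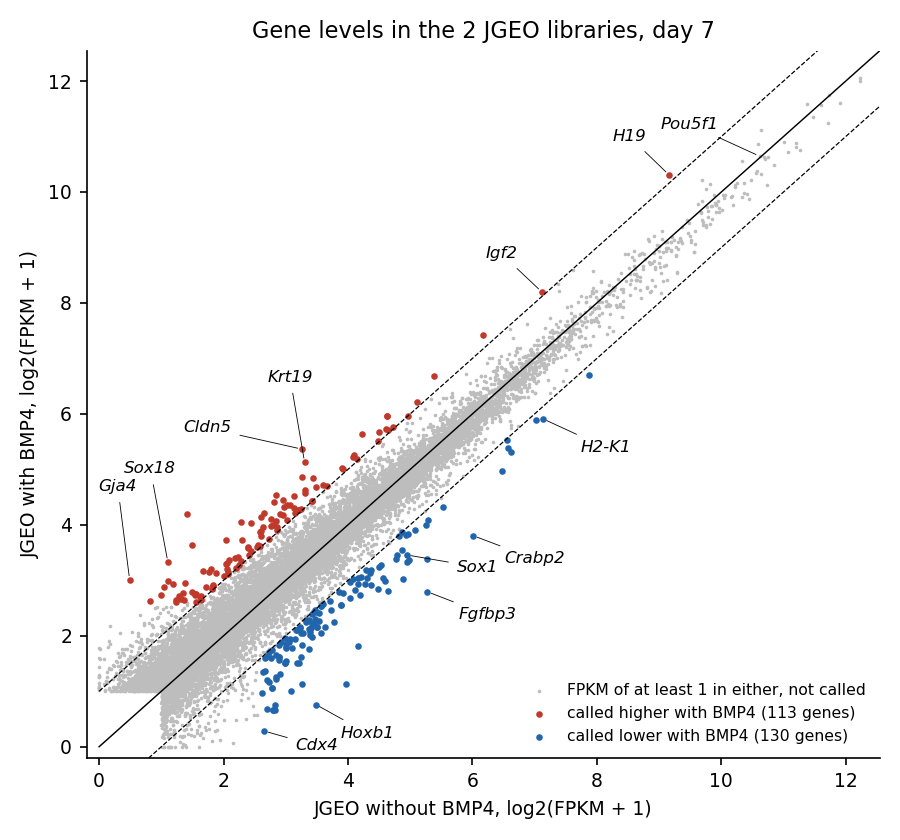
Each point is a gene that reached an FPKM of 1 in either library of JGEO, with log2(FPKM + 1) without BMP4 on the x axis and with BMP4 on the y axis, the solid line marks equal values and the dashed lines a 2-fold difference. The 113 genes called higher and 130 called lower form thin margins along a dense diagonal, Pou5f1 lies on the diagonal and Igf2 and H19 are called at high levels.

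Base composition moved with the response. Across 8783 genes with a GC content, Spearman's rho between GC content and the difference was -0.29, a description over genes that share both libraries and are not independent replicates. When the genes were cut into 10 bins by GC content, in the lowest bin (median GC 41.3%) the median difference was 0.21, with 21 genes called higher and 2 lower, and in the highest bin (60.2%) it was -0.08, with 12 higher and 28 lower. After the median of each bin was subtracted, 79 of 102 genes called higher and 107 of 119 called lower that had a GC value were still called. The trend ran the other way in JGE, where the median went from -0.19 in the lowest bin to 0.12 in the highest. It went from -0.21 to 0.05 in JGES and from 0.21 to -0.28 in JGESO.

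The named genes with the largest rises included several of the vascular endothelium. Gja4, which encodes the arterial gap-junction protein connexin 37, rose from 0.405 to 7.04 FPKM, a log2 difference of 2.52 (chr4:127311421-127314039 in GENCODE vM21, minus strand). Sox18, a SOX factor of endothelial specification, rose from 1.15 to 9.04 FPKM (2.22, chr2:181669836-181671640, minus strand). Cldn5, the main claudin of endothelial tight junctions, rose from 8.56 to 40.2 FPKM (2.11, chr16:18776847-18778262, plus strand). These genes were already detected without BMP4 and lay between 1.15 and 8.56 FPKM there, except Gja4, which was under 1 FPKM. All 3 were higher with BMP4 in JGE too, by 3.33, 3.696 and 2.97, whereas in JGESO the differences were 0.83, 0.63 and -0.23 and in JGES 0.51, 0.90 and 0.08.

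The other largest rises fell into several kinds. Krt19, a keratin of simple epithelia, rose from 8.86 to 34.0 FPKM (1.83). Among them were 3 X-linked genes of the Fthl17 family, relatives of the ferritin heavy chain, with Fthl17f at 0.763 and 5.18 FPKM, Fthl17b at 3.10 and 12.3 and Fthl17c at 4.43 and 15.4. Six2, a homeobox factor of kidney and mesenchymal progenitors, rose from 6.21 to 22.1 FPKM (1.68), and it was at least 2-fold higher with BMP4 in all 4 pairs. Rgcc, a regulator of the cell cycle found in endothelium, rose from 3.88 to 15.6 FPKM (1.77), and H2-Eb1, a class II histocompatibility gene, from 5.25 to 17.6 FPKM (1.57). Igf2os, an antisense transcript of Igf2, rose from 1.82 to 11.4 FPKM (2.14), Calcoco2, an autophagy receptor, from 1.16 to 6.89, and Rpp21, a subunit of ribonuclease P, from 1.05 to 6.31. Tuba3a, an alpha-tubulin gene, rose from 1.28 to 6.68 FPKM, and Cyp1a1, a cytochrome P450 induced through the aryl hydrocarbon receptor, from 0.999 to 5.64.

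The 15 largest falls were of several kinds. Hoxb1, the most 3′ gene of the HoxB cluster and a retinoic acid target, fell from 10.2 to 0.694 FPKM (-2.72, chr11:96365752-96368256, plus strand). Cdx4, a caudal-type homeobox factor of the posterior embryo that acts upstream of HOX genes, fell from 5.30 to 0.216 FPKM (-2.37, chrX:103321398-103330592, plus strand). Fgfbp3, which encodes a carrier of fibroblast growth factors, fell from 37.7 to 5.93 FPKM (-2.48). With BMP4, Hoxb1 and Cdx4 were under 1 FPKM, while Fgfbp3 stayed above the minimum of 5. Fabp7, the fatty acid binding protein of radial glia, fell from 16.8 to 2.54 FPKM (-2.33), and Crabp2, which carries retinoic acid to its nuclear receptors, fell from 63.7 to 12.96 FPKM (-2.21). Zic1, a zinc-finger factor of the dorsal neural tube, fell from 37.6 to 9.503 FPKM (-1.88), Wnt8a, a WNT ligand of the posterior embryo, from 28.4 to 7.13 (-1.86), and Dll1, a Notch ligand, from 7.47 to 1.01 (-2.07).

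A pair of transcripts of the HOX clusters were among the largest falls, Hoxb5os (14.7 to 1.18 FPKM, -2.85) and Hoxaas3 (6.10 to 0.579 FPKM, -2.17). They overlap HOX genes, and since no source used here states whether reads were assigned by strand, reads of the genes and of the antisense transcripts cannot be told apart. The same limit holds for Igf2os. The remaining falls among the 15 largest were the class I histocompatibility genes H2-Q9 (6.13 to 0.681 FPKM) and H2-Q7 (5.47 to 0.603), the histone gene H2ac11 (5.92 to 0.585), Crip1, a LIM protein (5.84 to 1.08), and Lcn2, a secreted lipocalin (8.30 to 1.86). H2-Q, histone and Fthl17 genes have near-identical copies, so their single values are uncertain.

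**Figure D2:**
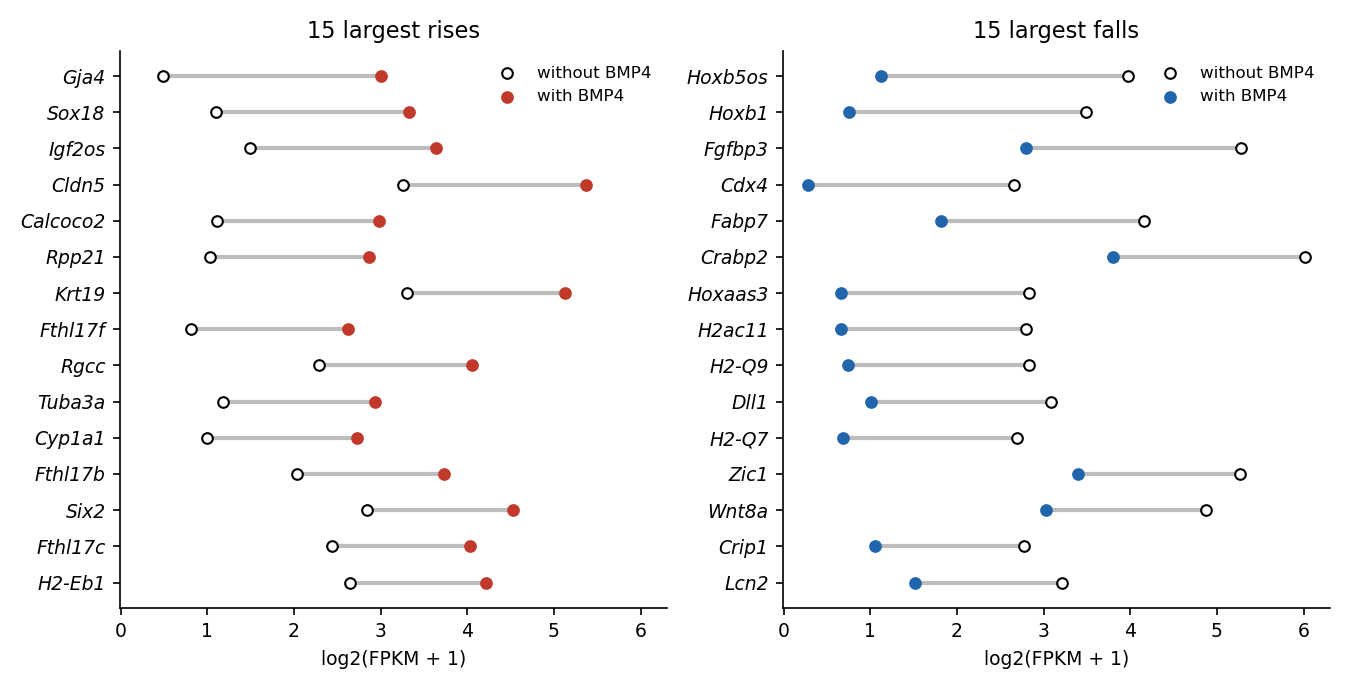
Open circles give log2(FPKM + 1) in the JGEO library without BMP4 and filled circles that with BMP4, for the 15 named genes with the largest rises (left) and falls (right), with 1 library a condition. Gja4 goes from 0.405 to 7.04 FPKM and Hoxb1 from 10.2 to 0.694 FPKM, and Crabp2 starts highest of the 15 falls shown, at 63.7 FPKM.

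Gene lists were summarised over members that reached an FPKM of 1 in either library of JGEO. At that minimum 250 of 14267 genes were at least 2-fold higher with BMP4 (1.75%) and 217 at least 2-fold lower (1.52%), and the median over all of them was 0.04. The lists were chosen with earlier results of these data known, so their counts and medians are descriptions beside that background.

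The endothelial list had the largest median among lists of which more than 1 member passed. Of 15 markers, 12 passed the minimum, all 12 were higher with BMP4, 8 of them by at least 2-fold, with a median difference of 1.22. Kdr, the VEGF receptor that marks endothelial progenitors, rose from 3.25 to 9.34 FPKM (1.28) and Esam, an endothelial adhesion molecule, from 3.699 to 9.66 (1.18). Pecam1, the junction protein CD31, went from 2.11 to 5.27 FPKM (1.01), and Cdh5, the endothelial cadherin, from 0.0154 to 2.37. Levels stayed low beside those of the fibroblast genes, since the 15 markers summed to 43.6 FPKM without and 114.5 FPKM with BMP4. Eng, a TGF-beta co-receptor that is less restricted to endothelium, was at 15.3 and 18.2 FPKM (0.24), Tek, the angiopoietin receptor, at 1.94 and 2.15, and Erg, an ETS factor, at 0 and 0.113. The list's median was 1.61 in JGE, 0.22 in JGESO and 0.62 in JGES.

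Epithelial genes were higher in 16 of 18 members that passed, with 4 at least 2-fold higher, 0 lower and a median of 0.58. Beside Krt19 these were the claudins Cldn4 (5.97 to 14.9 FPKM, 1.19), Cldn6 (1.84 to 4.71, 1.01) and Cldn7 (0.257 to 2.09, 1.298). The adhesion molecules that define epithelium moved less, with Cdh1, E-cadherin, at 14.3 and 17.6 FPKM (0.28) and Epcam at 15.1 and 22.4 FPKM (0.54). In JGE the list's median was -0.08, in JGESO 0.25 and in JGES -0.04.

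Pluripotency genes were higher with BMP4 in 17 of 20 members, with a median of 0.43, 3 of them by at least 2-fold and 1 lower by at least 2-fold. Tdgf1, which encodes the Nodal co-receptor Cripto, rose from 6.76 to 17.0 FPKM (1.21), Tcl1, a co-activator of AKT in embryonic stem cells, from 1.59 to 5.29 (1.28), and Dnmt3l, a co-factor of the de novo DNA methyltransferases, from 5.004 to 13.6 (1.28). Dppa5a, an RNA-binding protein of naive cells, was at 164 and 322 FPKM (0.97), just under the threshold, and Tfcp2l1, a naive-state factor, at 18.3 and 34.5 (0.88). The core factors differed little, with Nanog at 19.6 and 23.1 FPKM and Sox2 at 102 and 89.3 FPKM. Lin28a, an inhibitor of let-7 maturation, fell from 29.5 to 13.2 FPKM (-1.11). Of the primed and formative epiblast list, all 6 members that passed were lower and none by 2-fold (median -0.64), with Sox3 at 10.2 and 5.58 FPKM and Pou3f1 at 15.5 and 9.54.

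Early targets of BMP signalling showed no common direction in JGEO, with 3 of 6 higher, 3 lower and none at 2-fold. The inhibitors of differentiation were lower without reaching 2-fold. Id1 was at 81.1 and 60.1 FPKM (-0.43), Id2 at 105 and 54.1 (-0.94) and Id3 at 285 and 172 (-0.73). The inhibitory Smad genes Smad6 (15.2 and 19.12 FPKM) and Smad7 (12.7 and 18.3) were higher, as was the pseudoreceptor gene Bambi (4.62 and 8.90, 0.82). In the JGE pair Id1 differed by 1.92, Id3 by 1.19, Smad6 by 1.23 and Bambi by 2.42. Id2 differed by only 0.12 there and Smad7 by 0.33. The median of these 6 genes was 1.21 in JGE, 0.20 in JGESO and 1.71 in JGES. Of 15 further genes known to respond to BMP, 12 passed and 9 were higher, with a median of 0.49, and the homeobox genes Msx2 (1.90 to 5.65 FPKM, 1.20) and Dlx3 (14.1 to 31.0, 1.08) were at least 2-fold higher. Tbx3, a T-box factor, was at 11.6 and 21.6 FPKM (0.84) and Gata2, a zinc-finger factor of blood and trophoblast, at 14.5 and 23.9 (0.68). The median of these further genes was 1.78 in JGE, 0.66 in JGESO and 1.21 in JGES.

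The machinery of the pathway was present in both JGEO libraries. None of the 23 ligand, receptor, Smad and antagonist genes that passed differed by 2-fold, and their median was 0.06. Bmpr1a, a type I receptor, was at 4.54 and 6.69 FPKM, Bmpr2, the type II receptor, at 4.45 and 8.64 (0.82), and Bmp4 itself at 23.7 and 25.5. The signal transducers Smad1 (13.7 and 13.98 FPKM), Smad5 (38.7 and 46.3) and Smad4 (19.4 and 19.15) were within 0.26 of no difference. Among the antagonists, Fst was at 25.5 and 14.1 FPKM (-0.81) and Nbl1 at 59.1 and 34.3 (-0.77).

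HOX genes, which give cells their position along the body axis, were mostly lower with BMP4. Of the 37 HOX genes listed, 35 passed, 28 were lower and 12 of them by at least 2-fold, against 2 higher by 2-fold, and the median was -0.78. The list lacks Hoxa6 and Hoxb1, which were added after their values were seen, to give all 39 genes of the clusters. A split by paralogue group, also chosen after the values were seen, put the 27 genes of groups 1 to 9 on 1 side, all 27 lower and 12 by at least 2-fold, with a median of -0.93 and a range from -2.72 to -0.09. Of the 12 genes of groups 10 to 13, 10 passed, 9 of the 12 were higher and the median of the 12 was 0.21.

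The individual HOX genes spanned all 4 clusters. Hoxd1 went from 2.64 to 0.222 FPKM (-1.57), Hoxb2, a hindbrain gene, from 22.7 to 7.21 (-1.53) and Hoxa4 from 5.49 to 1.31 (-1.49). Hoxb8 fell from 17.0 to 7.23 FPKM and Hoxc9 from 9.07 to 3.77. At the other end of the clusters Hoxa13 went from 0.285 to 2.37 FPKM (1.39) and Hoxb13 from 0.615 to 2.63 (1.17), both from under 1 FPKM, while Hoxc10 fell from 10.1 to 4.54 (-1.01). Groups 1 to 9 had medians of -0.52 in JGE, -0.78 in JGESO and -1.04 in JGES, and groups 10 to 13 had -0.06, 0.12 and -0.39.

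**Figure D3:**
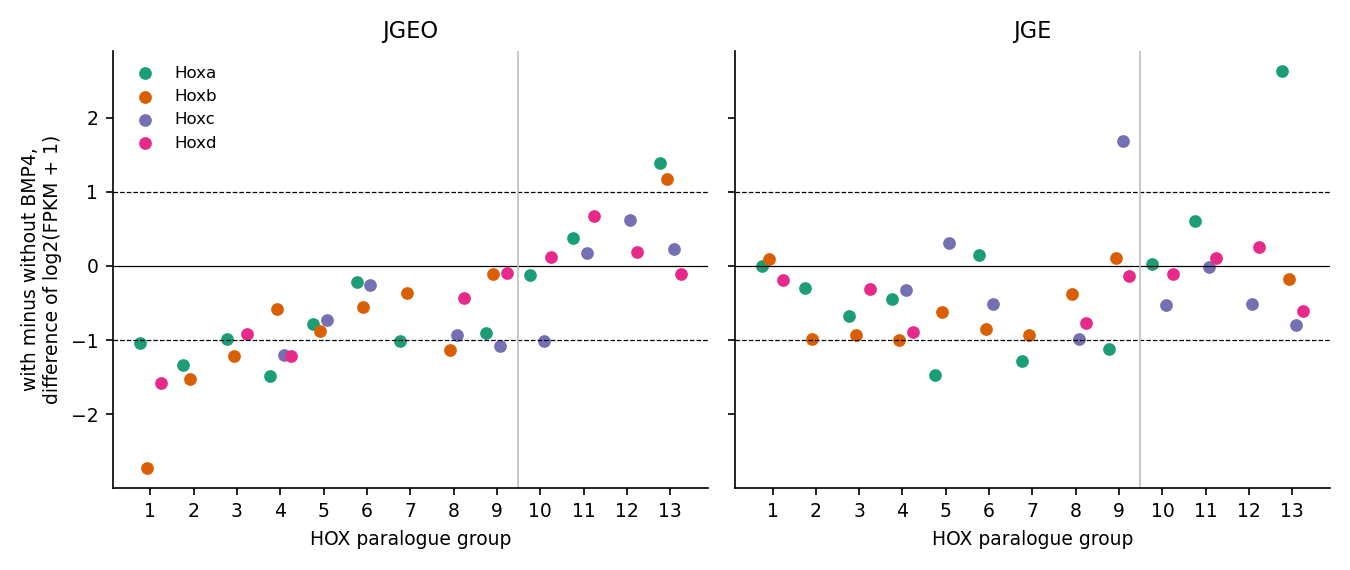
The difference of log2(FPKM + 1), with minus without BMP4, is plotted for the 39 HOX genes by paralogue group (x axis) and cluster (colour) in JGEO (left) and JGE (right), with dashed lines at 2-fold and a grey line between groups 9 and 10. In JGEO all 27 genes of groups 1 to 9 lie below 0, down to -2.72 for Hoxb1, and 9 of 12 genes of groups 10 to 13 lie above it.

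Neural genes were lower in 7 of 8 members that passed, 3 of them by at least 2-fold, with a median of -0.71. Sox1, the earliest SOX factor of the neural plate, fell from 29.8 to 9.98 FPKM (-1.49), and Tubb3, the neuronal beta-tubulin, from 30.4 to 9.25 (-1.62). Neurog1, a proneural factor that the list lacks, fell from 5.61 to 1.24 FPKM (-1.56). In JGE the list's median was 0.16 and its members went both ways, with Tubb3 at 1.13, Pax6 at -1.89 and Map2 at -1.27. The list's median was -0.30 in JGESO and 0.00 in JGES.

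Fibroblast genes were lower in 14 of 21 members that passed, with 4 at least 2-fold lower, 0 higher and a median of -0.34. The 4 were the collagen genes Col1a2 (128 to 58.1 FPKM, -1.13), Col6a1 (26.5 to 9.93, -1.33) and Col6a2 (10.8 to 3.12, -1.52) and Thbs2, a matricellular thrombospondin (13.5 to 5.88, -1.08). The other 7 members were higher, among them Pdgfra (3.68 to 7.34 FPKM, 0.83) and Postn (3.29 to 4.95, 0.47). Collagen genes as a family, chosen after the values were seen, went both ways. Of 32 that passed, 15 were higher and 17 lower, 1 and 5 by at least 2-fold, with a median of -0.16. In JGE the list's median was -1.17, and in JGESO and JGES it was 0.74 and 1.69. Among mesenchymal transcription factors Osr1, a zinc-finger factor of intermediate mesoderm, fell from 30.04 to 9.02 FPKM (-1.63), and the list's median was -0.23.

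Other lists gave few calls. Of 12 mesoderm and primitive streak genes 7 passed, 2 higher and 5 lower, with a median of -0.18. The only 1 at 2-fold was Kdr, which is also in the endothelial list. Of 14 keratinocyte and surface ectoderm genes 5 passed, 4 higher and 1 lower, none by 2-fold, with a median of 0.31. All 12 primitive endoderm genes passed, 8 higher and 4 lower, with a median of 0.374, or -0.028 at an FPKM minimum of 5. The 1 gene at least 2-fold higher was Sox17 (0.0575 to 1.99 FPKM, 1.501), a SOX factor that endothelium also expresses. Of 13 trophoblast genes 7 passed, 5 higher and 2 lower, with a median of 0.48, and 1 was at least 2-fold different each way. Plac1, a placental gene, went from 0.642 to 3.56 FPKM (1.47), and Cdx2, the caudal-type factor of trophectoderm and posterior embryo, fell from 9.47 to 3.02 FPKM (-1.38). Of 19 cell cycle genes 17 were lower, none by 2-fold, with a median of -0.28. The NuRD chromatin remodelling complex, which is known to bind Sall4, had 0 of 13 members at 2-fold and a median of 0.01. Dkk1, a WNT antagonist, was at 0.581 and 2.46 FPKM (1.13) and Sfrp2, another, fell from 30.3 to 13.2 (-1.14).

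Markers of other cells were read in the same way. Of 14 macrophage and blood markers, 11 passed, none differed by 2-fold and their sums were 114.0 and 115.7 FPKM, led by the lysozyme gene Lyz2 at 66.1 and 72.5, while Ptprc, the pan-leukocyte marker, stood at 0.0529 and 0.0352. None of 7 hemoglobin genes reached 1 FPKM. Xist, the RNA of the inactive X chromosome, was at 3.12 and 8.81 FPKM (1.25), and the Y-linked genes were also higher with BMP4, all from under 1 FPKM, with Eif2s3y at 0.482 and 1.57 FPKM (0.79), Ddx3y at 0.654 and 1.17 (0.39), Kdm5d at 0.278 and 0.625 (0.35) and Uty at 0.141 and 0.321 (0.21). Of 245 X-linked genes compared, 13 were called higher (5.31%) and 1 lower, with a median of 0.11, against 92 of 8603 on the 19 autosomes (1.07%), whose medians ran from -0.04 to 0.06. The 13 included 5 Fthl17 genes, which have near-identical copies, Xist and the ubiquitin ligase gene Rlim (2.39 to 7.93 FPKM). The X-linked genes had a median GC content of 48.2%. After the median of each GC bin was subtracted, 10 of them were called higher and 1 lower, with a median of 0.10. Embryos of both sexes could enter a culture, and the part of sex in these values was not tested.

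**Figure D4:**
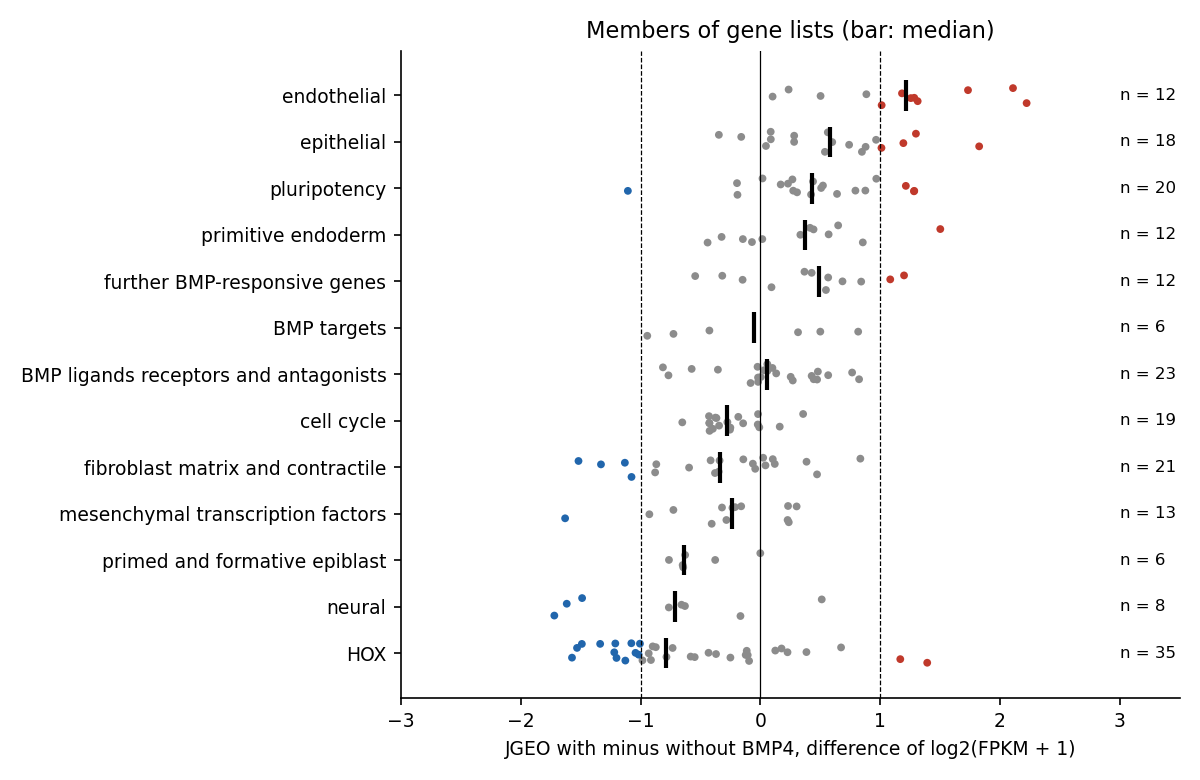
Each point is a list member that reached an FPKM of 1 in either library of JGEO, placed by its difference of log2(FPKM + 1), with minus without BMP4, black bars are medians and coloured points differ by at least 2-fold. The endothelial median is 1.22, the HOX median -0.78 and the neural median -0.71, while the 6 BMP targets lie on both sides of 0.

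Of 13 imprinted growth genes listed, 12 passed, 9 were higher with BMP4 and 3 lower, 2 were at least 2-fold higher and none lower, and the median was 0.23. Both that rose lie on chromosome 7 and, with Ins2, which the list lacks and which was added after its value was seen, they were called in all 4 pairs. Igf2, a fetal growth factor, rose from 137 to 293 FPKM (1.09), H19, the noncoding RNA that shares its enhancers, from 569.8 to 1269 (1.15), and Ins2, the insulin gene beside Igf2, from 40.6 to 102 (1.31). Ins2 and Igf2 share readthrough transcripts, so their reads may be split. The nearby Kcnq1, a potassium channel gene that the list also lacks, rose from 9.69 to 20.7 FPKM (1.02). Of nearby listed genes, Cdkn1c, a cell cycle inhibitor, was at 244 and 382 FPKM (0.65) and Phlda2 at 4.01 and 3.56. None of the other listed genes that passed reached 2-fold, with Dlk1, a Notch-like ligand gene, at 6.82 and 13.2 FPKM (0.86), Igf2r, the receptor that clears Igf2, at 22.3 and 35.5 (0.65), Meg3, Peg3, Peg10 and Plagl1 higher by 0.24, 0.21, 0.18 and 0.10, and Mest and Grb10 at -0.15 and -0.36. In JGE Igf2 differed by 2.45 and H19 by 2.64.

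Several gene families were chosen after their values were seen and are described without a list, among them the collagens above. Of 62 core histone genes that passed, 43 were lower and 19 higher, 9 and 1 by at least 2-fold, with a median of -0.33. Of 8 antisense and host transcripts of the HOX clusters, 7 were lower, 4 of them by at least 2-fold. The 2 class II histocompatibility genes that passed were higher, 1 by at least 2-fold. All 6 Fthl17 genes that passed were at least 2-fold higher in JGEO (median 1.57), while the medians were -1.32 in JGESO and -4.69 in JGES, and all 6 were listed at 0 in both JGE libraries, which therefore show no response to compare. Of 20 class I histocompatibility genes, which present peptides to T cells, 18 were lower and 8 by at least 2-fold, with a median of -0.89. H2-K1 fell from 140 to 59.1 FPKM (-1.22) and H2-D1 from 97.6 to 38.6 (-1.32). H2-L, at 94.1 and 40.7 FPKM, stood close to H2-D1, and H2-Q6 and H2-Q8 were also close to each other. Symbols with such close values may share reads, so the counts of 18 and 8 may hold the same reads more than once. The family's median was -0.73 in JGE, -0.36 in JGESO and -0.16 in JGES.

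The calls were then read in the other factor sets, which share no library with JGEO. Of the 113 genes called higher in JGEO, 30 were at least 2-fold higher in JGE (26.5%), 24 in JGESO (21.2%) and 36 in JGES (31.9%), against 2.78%, 3.99% and 6.89% of all 9320 genes. Going the other way, 7 (6.2%), 11 (9.7%) and 23 (20.35%) were at least 2-fold lower, against 3.19%, 2.29% and 8.04% of all genes. Of the 130 called lower, 28 were at least 2-fold lower in JGE (21.5%), 47 in JGESO (36.2%) and 51 in JGES (39.2%), against 3.19%, 2.29% and 8.04%. In the opposite direction 11 (8.46%), 7 (5.4%) and 14 (10.8%) were at least 2-fold higher, against 2.78%, 3.99% and 6.89%. Called genes thus passed 2-fold more often than all genes in both directions, and more often in the direction of their call. Across all 9320 genes the differences in JGEO correlated weakly with those in the other sets, with Pearson's r of 0.06 in JGE, 0.20 in JGESO and 0.08 in JGES and Spearman's rho of -0.08, 0.20 and 0.11, so that the sign in JGE differed between the measures. These are descriptions over genes.

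Few calls were shared by all 4 pairs. Of the 113 genes called higher in JGEO, 13 were at least 2-fold higher in each of the other 3 pairs too (11.5%), as were 27 of all 9320 genes compared whatever their value in JGEO (0.290%). Among the 13 were Dlx3, Msx2, Six2, Igf2, Igf2os, H19, Ins2, the transferrin gene Trf and the amino acid transporter gene Slc7a8. Of the 130 called lower, 3 were at least 2-fold lower in each of the other 3 pairs (2.31%), as were 15 of the 9320 (0.161%), and the 3 were Zic1, Cacng7, a calcium channel subunit gene, and Lrp3, a gene of the LDL receptor family.

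**Figure D5:**
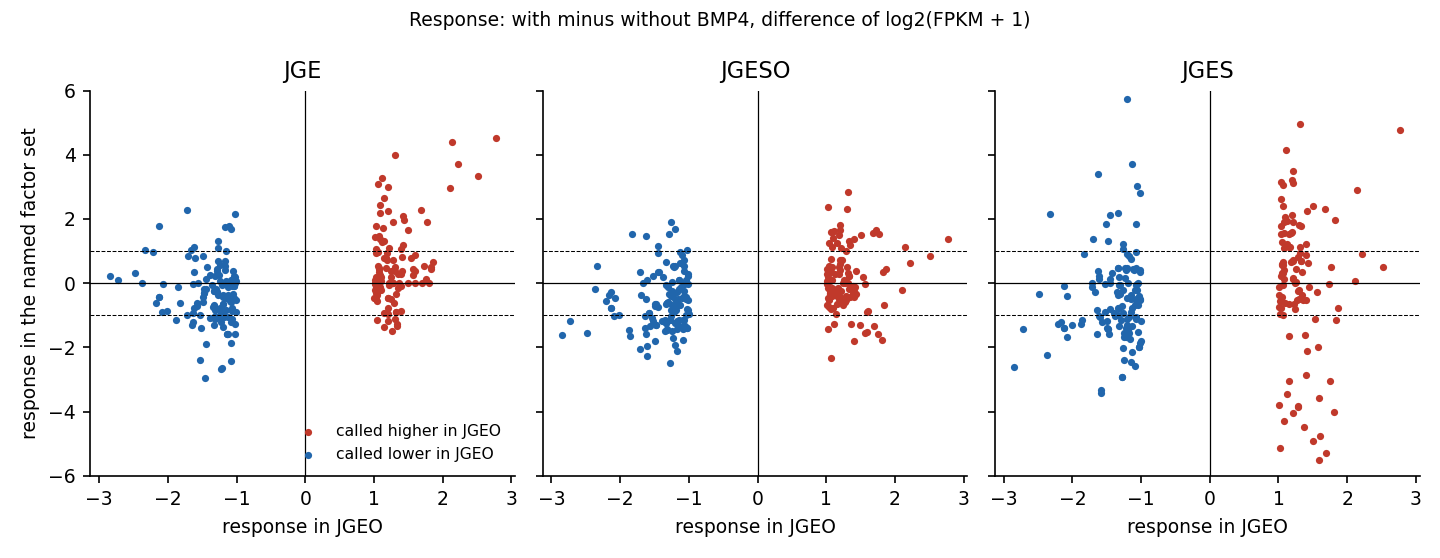
Each point is a gene called in JGEO, with its difference in JGEO on the x axis and in the JGE, JGESO or JGES pair on the y axis, both with minus without BMP4 on the log2(FPKM + 1) scale, and dashed lines at 2-fold. Of the 113 genes called higher (red), 23 lie below the lower line in JGES and 7 in JGE, and of the 130 called lower (blue), 47 lie below it in JGESO.

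Some genes differed in JGEO and JGE by very different amounts. Agtr2, an angiotensin receptor of fetal mesenchyme, rose from 8.92 to 22.9 FPKM in JGEO (1.27) and differed by -1.50 in JGE. Cavin2, a caveola protein, Popdc2, a protein of muscle membranes, and Pid1, an adaptor protein, also lay above JGE, by 3.18, 2.76 and 2.67. In the other direction Crip1 differed by -1.72 in JGEO and 2.27 in JGE, Slc16a3, a lactate exporter, by 0.06 and 3.64, and Arid3b, a DNA-binding factor, by -0.94 and 2.58. Fabp7 and Crabp2 completed the 5 largest gaps in that direction, at -3.38 and -3.17. With 1 library a condition these gaps have no test.

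Single-cell counts of the series, from JGES cells with and without BMP4, showed which of the authors' cell classes held each called gene at its highest level, though with another factor set and 1 sample a condition. Counts were summed per class and scaled to the same total in each class (CPM), and doublets were neither called nor removed here. Of 85 genes called higher in JGEO with a value of at least 5 CPM, 38 were highest in the BMP4+ class named intermediate state (44.7%), 15 in the BMP4- pluripotent cells and 11 in the BMP4+ endothelial cells, where 19.9%, 9.24% and 9.6% of all 7848 genes were highest. Fewer were highest in the BMP4+ Placenta-like class, with 10 (11.8%, against 28.1% of all genes), and in the BMP4+ class named ParE, with 1 (1.18%, against 17.8%). Of 73 called lower, 24 were highest in the BMP4- intermediate state (32.9%, against 6.37% of all genes).

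Single genes varied in where they were highest. In endothelial cells Gja4 reached 249 CPM with and 126 CPM without BMP4, and it was at most 5.45 CPM in the other classes, and Cldn5 was at 328 and 271 CPM in the endothelial classes. Fthl17c was highest in the pluripotent cells, at 115 CPM. Hoxb1 reached 10.8 CPM and Hoxb5os 37.4 CPM in the BMP4- intermediate state, where Crabp2 stood at 67.7 CPM, against 42.8 CPM in the BMP4+ intermediate state. Other genes called lower in JGEO stood the other way round, with Fabp7 at 28.2 CPM in the BMP4+ and 5.01 CPM in the BMP4- intermediate state and Sox1 at 5.48 and 0.469 CPM. Crip1 and Tubb3, also called lower, were highest in the BMP4+ class named Placenta-like, at 516 and 40.6 CPM. Whether JGEO cultures hold the same classes was not measured.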

How the data were processed

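Polyadenylated RNA of 8 cultures was sequenced by the authors, 1 library per factor set and BMP4 condition. The deposited FPKM values were made by the authors, whose processing notes name Trim Galore 0.6.4, HISAT2 2.2.1, StringTie 2.2.1 and mm10. Depth is unknown, since FPKM keep no read totals, so no interval is given. FPKM summed to 428504 without and 409454 with BMP4 in JGEO, and 13387 and 13817 genes had at least 1.

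A pseudocount of 1 was added before taking log2 (Python 3.11.15, pandas 2.3.3, numpy 2.4.6). Named genes were the 15 largest rises and falls with an FPKM of at least 5, leaving out gene models, the members of 34 lists, and the 5 largest gaps between JGEO and JGE each way. Some genes under this rule are not reported here. Members and lists were chosen with earlier results of these data known. Alternatives varied the pseudocount, minimum, scaling, GC content and gene models. The deposited single-cell counts hold the authors' class names, and 10749 cell columns of MEF and ESC were not used. GC content and positions came from GENCODE vM21, promoters from RefSeq (GRCm38.p6).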

Additional observations from a re-analysis of the deposited data

Results flagged for a closer look

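Among the named genes and list members that reached an FPKM of 5 in both pairs, there were 6 for which the JGEO and JGE libraries differed by at least 2-fold in opposite directions. Over all called genes, with no minimum in JGE, 7 of 113 called higher (6.2%) and 11 of 130 called lower (8.46%) did so. Of all 9320 genes compared, 3.19% were at least 2-fold lower and 2.78% at least 2-fold higher in JGE. In each case the difference between the factor sets was not tested, with 1 library a condition. The named genes include the 5 largest gaps between JGEO and JGE each way. Agtr2 was named for that gap alone, and Crip1 both for it and as 1 of the 15 largest falls. Agtr2 differed by 1.27 with BMP4 in JGEO and by -1.50 in JGE, a gap of 2.77 on the log2(FPKM + 1) scale. Spp1, the matrix protein osteopontin, differed by 1.04 and -1.13, a gap of 2.18. The other 4 were lower with BMP4 in JGEO and higher in JGE, namely Crip1 with a gap of -3.99, Lin28a with -2.89, Hoxc9 with -2.76 and Tubb3 with -2.75.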

How the results depend on the processing

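No paired analysis was possible because each condition had 1 library, and for the same reason no replicate could be left out. The 113 genes called higher became 31 with a pseudocount of 5, 250 with an FPKM minimum of 1 or with no filter and 70 with a minimum of 10, and the 130 called lower became 31, 217 and 67, as the alternatives' own construction sets the number of genes tested and shrinks low values. A pseudocount of 5 moved the endothelial median from 1.22 to 0.54, the HOX median from -0.78 to -0.44 and the neural median from -0.71 to -0.37, and a pseudocount of 0.1 moved the neural median to -1.40. An FPKM minimum of 5 moved the neural median to -1.49 and the primitive endoderm median from 0.374 to -0.028, which changes its sign. Alternatives were run for these counts and for 9 list medians (the others were epithelial, pluripotency, BMP targets, fibroblast and mesenchymal), and apart from the values above the medians stayed within 0.25 and the counts within 1.5 times. The other list and family medians were not recomputed. With a pseudocount of 5, 12 of the 30 named genes were under 2-fold. Unknown depth and single libraries limit every value.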
